A study of Mus musculus with 39 samples.

Results

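Senescence and CDK inhibitor genes were followed in PB2 tumors, a mouse breast cancer model grown as grafts, that carried either p95HER2, a truncated HER2 receptor lacking most of its extracellular domain, or full-length HER2 (FL-HER2). The set was 9 genes of the 20520 in the table, matched by symbol: the Cip/Kip inhibitors Cdkn1a and Cdkn1b, the INK4 inhibitors Cdkn2a, Cdkn2b, Cdkn2c and Cdkn2d, the tumor suppressor Trp53, the lamin gene Lmnb1 and the lysosomal galactosidase gene Glb1. They were chosen because p95HER2 is known to induce senescence-like states. Poly(A) RNA of whole tumors was sequenced in 39 libraries, and the groups were p95HER2 at day 22 after implantation (10 libraries), p95HER2 at day 10 (10), FL-HER2 at day 22 (9) and FL-HER2 at day 10 (10). All groups shared the PB2 line. Nothing in the sources used here gives the host strain or age, the promoter driving each receptor, or whether each library is 1 animal, so the p-values rest on a spread between libraries that may be technical.

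Senescence is a lasting exit from the cell cycle that oncogene signaling, DNA damage or telomere loss can set off. CDK inhibitors hold the kinases that phosphorylate RB, so that E2F factors stay blocked: INK4 proteins bind CDK4 and CDK6, and Cip/Kip proteins bind cyclin-CDK complexes. Senescent cells are also known for low lamin B1, high lysosomal beta-galactosidase and a secretory program of cytokines, proteases and growth factors. In HER2-driven breast cancer cells the truncated receptor is known to set off such a program.

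The tests used the values as deposited, log2 of the normalized count plus 1, and levels below are normalized counts unless stated. A gene was called at an adjusted p under 0.05 from limma over 13650 genes, and all 9 members passed the low-value filter. Log2 changes are given ± SE from that fit, and levels and ratios ± SD over the libraries of a group. Recovered reads came to 21772259 to 44427621 per library. Per kilobase of exon the members' overall levels ran in the order Cdkn1a (2097 normalized counts per kilobase), Lmnb1 (2015), Cdkn2a (1497), Trp53 (1251), Cdkn2c (923), Glb1 (617), Cdkn1b (539.5), Cdkn2d (407) and Cdkn2b (319). Cdkn2b, the lowest, still had 228 reads or more in every library, so spread between libraries rather than counting limits its error.

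Libraries of this series differed in more than the receptor and the day. T cell markers (9 of 10 tested) took 0.001% to 0.0054% of reads in p95HER2 and 0.00262% to 0.00885% in FL-HER2 at day 22. At day 10 they took 0.000823% to 0.00655% and 0.00121% to 0.00313%. At day 22, 6 of the 9 were called lower in p95HER2, beside 1.54% of all tested genes. With time 8 rose in FL-HER2 and 0 in p95HER2, beside 20.7% and 16.6% of all tested genes. Fibroblast markers (12 of 12 tested) took 0.183% to 0.354% of reads in p95HER2 at day 22, 0.530% to 1.22% in p95HER2 at day 10, 0.136% to 0.391% in FL-HER2 at day 22 and 0.913% to 2.71% in FL-HER2 at day 10. Skeletal muscle markers (20 of 20 tested) took 0.00168% to 0.609%, 0.00388% to 1.07%, 0.0267% to 0.937% and 0.050% to 3.88% in the same order, and 11 libraries, called skin-high below, had a mean log2 skin marker value of at least 6 (3 of p95HER2 day 22, 5 of p95HER2 day 10, 1 of FL-HER2 day 22 and 2 of FL-HER2 day 10). All 10 mammary epithelium markers were tested and detected, and the luminal markers Epcam, Krt8 and Cdh1 had 421 CPM, 459 CPM and 289 CPM or more in every library. Erbb2, the gene of the HER2 receptor, is 1 of the 10. Its median was 175.5 CPM in p95HER2 and 104.6 CPM in FL-HER2 at day 22, and 348.4 CPM and 180.3 CPM at day 10. The mean of this list is a covariate below, and such fits adjust in part for Erbb2. The epithelium list was not steady with time. In p95HER2 2 of 10 rose and 6 fell (median -0.77), and in FL-HER2 none rose and 6 fell (median -0.77). Over all tested genes 35.2% were called with time in p95HER2 and 51.4% in FL-HER2. Krt14, a basal keratin, had medians of 30.01 CPM in p95HER2 at day 22, 142.9 CPM in p95HER2 at day 10, 21.9 CPM in FL-HER2 at day 22 and 162.6 CPM in FL-HER2 at day 10. Median CPM of the luminal keratins Krt7, Krt18 and Krt19 was also lower at day 22 in both receptors. Krt7 had 59.4 in p95HER2 and 22.9 in FL-HER2 at day 22, and 233 and 104.5 at day 10. Krt18 had 356.8 and 276.5 at day 22, and 505.3 and 395.4 at day 10. Krt19 had 32.2 and 42.5 at day 22, and 64.2 and 103.8 at day 10. Not every epithelial marker was lower. Epcam had 719.9 and 643.3 at day 22, and 599 and 626.4 at day 10. Erbb3 had 65.4 and 58.3 at day 22, and 49.5 and 51.4 at day 10. Krt8 had 622.5 and 582.8 at day 22, and 615.8 and 602.1 at day 10. Cdh1 had 381.4 and 351.9 at day 22, and 393.3 and 328.8 at day 10. Tumor numbers have 3 digits in all p95HER2 libraries, all FL-HER2 libraries of day 22 and 2 of day 10, and 5 digits in the other 8 as their columns name them. For FL-HER2 day 10 replicate 8 the title gives a number of 4 digits, and the digits term used below follows the column. Fewer cells of a type and less RNA per cell cannot be told apart in such bulk samples, and the part of these differences in the results below was not tested beyond the covariate fits given there. The fibroblast and epithelium scores (mean log2 values) did not overlap between the days in either receptor. In FL-HER2 they were 9.85 to 10.97 and 10.92 to 11.59 at day 22 and 11.84 to 13.04 and 12.01 to 12.56 at day 10. In p95HER2 they were 10.02 to 10.93 and 11.21 to 11.87, then 11.04 to 12.1 and 12.17 to 12.57. Fits with either score therefore cannot tell the score and the day apart, whether or not a call with time ended. At day 10 only p95HER2 replicate 10 (12.1) reached the fibroblast score range of FL-HER2 (11.84 to 13.04). Fits with the fibroblast score therefore separate it poorly from the receptor at day 10, whether or not a call ended.

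The 5 promoter windows printed here belong to Cdkn1a, the member with the highest level per kilobase, and to the neighbors Cdkn2a and Cdkn2b, which share one locus yet moved in opposite directions with time in FL-HER2 tumors. Each runs 5′ to 3′ on the gene's strand, from 250 bases before to 50 after an annotated start (RefSeq, GRCm38.p6). They are chr17:29090729-29091028 (plus strand) and chr17:29093519-29093818 (plus strand) for the upstream and downstream starts of Cdkn1a, chr4:89294570-89294869 (minus strand) for the Arf start of Cdkn2a, chr4:89282143-89282442 (minus strand) for its Ink4a start and chr4:89310983-89311282 (minus strand) for Cdkn2b. Capitals mark matches, on either strand, to 6 searched motifs: the p53 core pair (CATG, then any 6 bases, then CATG), TGACGTCA (CRE), TGACTCA (AP-1), TTTGGCGC (E2F), GGGCGG (GC box) and CCAAT.
Cdkn1a upstream start: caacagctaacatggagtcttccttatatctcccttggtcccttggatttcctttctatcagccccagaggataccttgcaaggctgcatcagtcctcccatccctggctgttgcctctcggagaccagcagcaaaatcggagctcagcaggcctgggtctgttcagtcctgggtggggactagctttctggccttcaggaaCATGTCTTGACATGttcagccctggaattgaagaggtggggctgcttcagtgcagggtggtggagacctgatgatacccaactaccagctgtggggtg
Cdkn1a downstream start: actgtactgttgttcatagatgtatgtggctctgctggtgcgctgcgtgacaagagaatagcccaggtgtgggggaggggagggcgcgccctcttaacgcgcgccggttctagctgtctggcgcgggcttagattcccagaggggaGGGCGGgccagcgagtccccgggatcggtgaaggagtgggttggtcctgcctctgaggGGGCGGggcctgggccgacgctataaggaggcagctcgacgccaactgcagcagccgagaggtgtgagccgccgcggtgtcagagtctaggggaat
Cdkn2a Arf start: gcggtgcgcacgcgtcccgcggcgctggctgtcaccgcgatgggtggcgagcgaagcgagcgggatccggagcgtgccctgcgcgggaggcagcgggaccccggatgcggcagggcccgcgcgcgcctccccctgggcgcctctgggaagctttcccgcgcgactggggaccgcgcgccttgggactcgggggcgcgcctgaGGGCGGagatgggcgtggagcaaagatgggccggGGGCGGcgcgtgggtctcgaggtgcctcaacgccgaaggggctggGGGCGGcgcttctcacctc
Cdkn2a Ink4a start: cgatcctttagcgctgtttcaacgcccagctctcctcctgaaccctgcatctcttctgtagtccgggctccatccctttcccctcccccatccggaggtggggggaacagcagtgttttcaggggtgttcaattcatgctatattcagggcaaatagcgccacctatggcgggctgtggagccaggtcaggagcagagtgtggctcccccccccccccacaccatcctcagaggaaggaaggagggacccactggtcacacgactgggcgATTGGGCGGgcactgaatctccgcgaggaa
Cdkn2b: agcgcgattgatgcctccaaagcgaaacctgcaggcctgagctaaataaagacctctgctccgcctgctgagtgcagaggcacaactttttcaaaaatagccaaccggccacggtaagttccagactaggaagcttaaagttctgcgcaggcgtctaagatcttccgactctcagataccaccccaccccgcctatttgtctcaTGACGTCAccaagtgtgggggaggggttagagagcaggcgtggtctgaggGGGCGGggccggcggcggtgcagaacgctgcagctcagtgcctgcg

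The upstream Cdkn1a window holds the p53 core pair 48 bases before its start, a match found in 0.71% of 32817 windows of this length genome-wide, and the downstream window holds no such pair and 2 GC boxes. Cdkn2b holds a CRE 46 bases before its start, found in 1.79% of windows, and 1 GC box. The Arf window has 3 GC boxes and the Ink4a window 1, overlapping a reversed CCAAT, and 35.6% of all windows hold a GC box and 37.4% a CCAAT. The AP-1 letters (5.2% of windows) were found among the members only in the Glb1 window, and the E2F letters (0.515%) in none of the 11 windows available for 8 members. Lmnb1 had no entry. These are matches of letters, not measured binding.

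In the mm10 annotation (GENCODE M21) Cdkn2a spans chromosome 4, 89274471 to 89294653, and Cdkn2b chromosome 4, 89306299 to 89311039, both on the minus strand. Cdkn2a encodes p16Ink4a and, from its upstream start and in another reading frame, p19Arf, which stabilizes p53. The deposited values are sums over the gene, so the transcripts of these products were not separated.

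Between the receptors at day 10, 4 of the 9 members differed. Cdkn2b, Cdkn2a, Cdkn1a and Cdkn1b rose in p95HER2 tumors, by 0.77, 0.30, 0.21 and 0.17 on the log2 scale, and Trp53, Cdkn2c, Cdkn2d, Lmnb1 and Glb1 did not pass the test. These 4 are a share near the background of 41.3% of all tested genes called in this comparison (15.2% called higher, 26.1% lower), with a median log2 change of -0.04 over all genes. Of all calls at day 10, 36.7% were higher in p95HER2, a share that was 49.1% with median-of-ratios size factors, 51.7% with TMM and 62.9% with quantile normalization. At day 22, 1 of 9 members was called, Cdkn2b again, where 4.52% of all genes were called (2.98% higher, 1.54% lower) and the median was -0.01.

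With time more members changed. In p95HER2 tumors 5 of 9 were called between day 22 and day 10, Cdkn1a, Cdkn2c and Trp53 higher and Cdkn1b and Cdkn2b lower, beside 35.2% of all genes (16.6% higher, 18.6% lower, median 0.00). In FL-HER2 tumors 8 of 9 were called, those 5 in the same directions and, in addition, Cdkn2a and Lmnb1 higher and Cdkn2d lower, beside 51.4% of all genes (20.7% higher, 30.6% lower, median -0.03; 40.4% of calls were higher, and 62.5% under quantile normalization). The change of the p95HER2 effect between the days was called for 2 of 9 members, Cdkn1a and Cdkn2d, beside 19.6% of all genes (13.5% higher, 6.2% lower, median 0.04; 68.5% of calls were higher, and 43.5% under quantile normalization). FL-HER2 at day 10 enters the comparison at day 10, the time course of FL-HER2 and the change of effect, so those results share libraries.

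**Figure D1:**
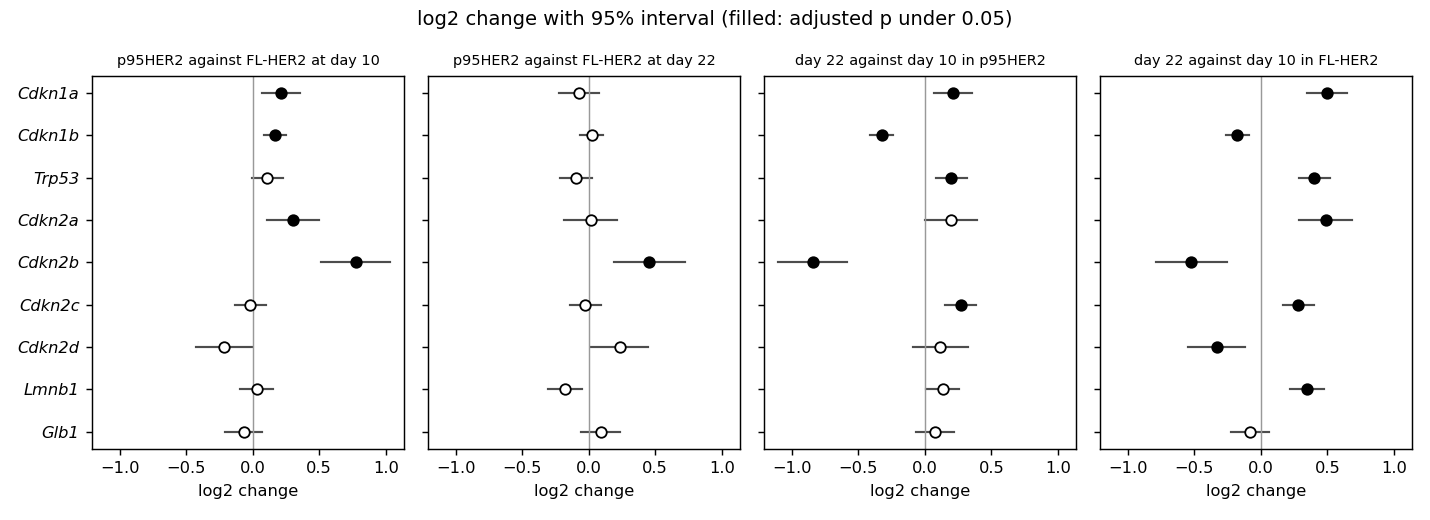
Log2 changes of the 9 members (points, filled where adjusted p is under 0.05) with 95% confidence intervals in 4 comparisons: p95HER2 relative to FL-HER2 (day 10, then day 22), then day 22 relative to day 10 (p95HER2, then FL-HER2). Cdkn2b lies right of 0 in both receptor comparisons (0.77 and 0.45) and left of 0 in both time courses (-0.84 and -0.52).

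Cdkn2b encodes p15Ink4b, an inhibitor of CDK4 and CDK6 that TGF-beta is known to induce. It was the member that differed most between the receptors. In p95HER2 tumors Cdkn2b had 239, 389 and 545 normalized counts at day 22 (lowest, median and highest) and 440.4, 692 and 818 at day 10. In FL-HER2 tumors Cdkn2b had 218, 275 and 379 at day 22 and 277, 396 and 519 at day 10. At day 10, 9 of the 10 p95HER2 libraries lay above every FL-HER2 library, and the other, replicate 6, overlapped them. At day 22 the groups overlapped, with 6 of 10 p95HER2 libraries above all of FL-HER2.

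Cdkn2b was higher with p95HER2 by 0.77 ± 0.13 at day 10 (SE, 1.71-fold, limma adjusted p = 9.14e-06) and by 0.45 ± 0.13 at day 22 (1.37-fold, adjusted p = 0.0371). It fell with time in p95HER2 by 0.84 ± 0.13 (adjusted p = 1.51e-06) and in FL-HER2 by 0.52 ± 0.13 (adjusted p = 0.00110). The receptor effect was smaller at day 22 by 0.32 ± 0.18, a change that did not pass (adjusted p = 0.217). By group means the order was p95HER2 day 10, FL-HER2 day 10, p95HER2 day 22 and FL-HER2 day 22, and the middle pair (409 ± 86.4 for FL-HER2 at day 10 and 389.9 ± 85.5 for p95HER2 at day 22, SD) lay within its spread. The difference at day 10 passed under every alternative and without any single library, whereas that at day 22 ended under 5 alternatives, among them leaving out the skin-high libraries (0.46, adjusted p = 0.0997), and without any 1 of 9 libraries (p95HER2 day 22 replicates 1, 4, 8, 9 and 10 and FL-HER2 day 22 replicates 1, 3, 4 and 9, adjusted p up to 0.0942). The fall in p95HER2 lost its call with the fibroblast score (-0.46, adjusted p = 0.0655) and with the epithelium score as a covariate (-0.60, adjusted p = 0.187). That in FL-HER2 lost it with the digits of the tumor number as a term (-0.04, adjusted p = 0.929), the epithelium score (-0.21, adjusted p = 0.786) and the fibroblast score, where the change was 0.21 (adjusted p = 0.789).

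Cdkn2a, the neighbor of Cdkn2b, took another course with time. In p95HER2 tumors Cdkn2a had 1519.8, 1923 and 2304 normalized counts at day 22 and 1191, 1760.1 and 2226 at day 10. In FL-HER2 tumors Cdkn2a had 1517, 2017 and 2386 at day 22 and 1085, 1308 and 1715 at day 10. FL-HER2 at day 10 was low, with 5 of 10 p95HER2 day 10 libraries above its highest, while the day 22 groups overlapped throughout.

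The log2 change of Cdkn2a between the receptors was 0.30 ± 0.10 at day 10 (limma adjusted p = 0.0117) and 0.01 ± 0.10 at day 22 (95% interval -0.19 to 0.21, adjusted p = 0.964). With time it was 0.20 ± 0.10 in p95HER2 (adjusted p = 0.112, and 0.0474 without p95HER2 day 10 replicate 1) and 0.49 ± 0.10 in FL-HER2 (adjusted p = 9.58e-05), and the 2 receptor effects did not differ past the threshold (-0.29 ± 0.14, adjusted p = 0.135). The call at day 10 ended without the skin-high libraries (0.26, adjusted p = 0.115), with the digits term (0.18, adjusted p = 0.545) and with the fibroblast score (0.08, adjusted p = 0.798). The rise with time in FL-HER2 ended with the digits term (0.37, adjusted p = 0.120) and with the fibroblast score (0.08, adjusted p = 0.914), and the change of effect was called with the length index described below as a covariate (-0.51, adjusted p = 0.000671).

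Within a library, where the scaling cancels, Cdkn2b reads per Cdkn2a read averaged 0.200 ± 0.0381 in p95HER2 at day 22 and 0.415 ± 0.0977 at day 10 (SD). In FL-HER2 the ratio averaged 0.147 ± 0.0328 at day 22 and 0.303 ± 0.0911 at day 10. Every library had fewer Cdkn2b than Cdkn2a reads, with a highest ratio of 0.561. With group means removed, the levels of Cdkn2a and Cdkn2b showed no relation past the permutation test over the 39 libraries (r = 0.03, rho = 0.09, adjusted p = 0.876 and 0.583, 4 relations, r = -0.01 without the 2 outermost libraries).

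**Figure D2:**
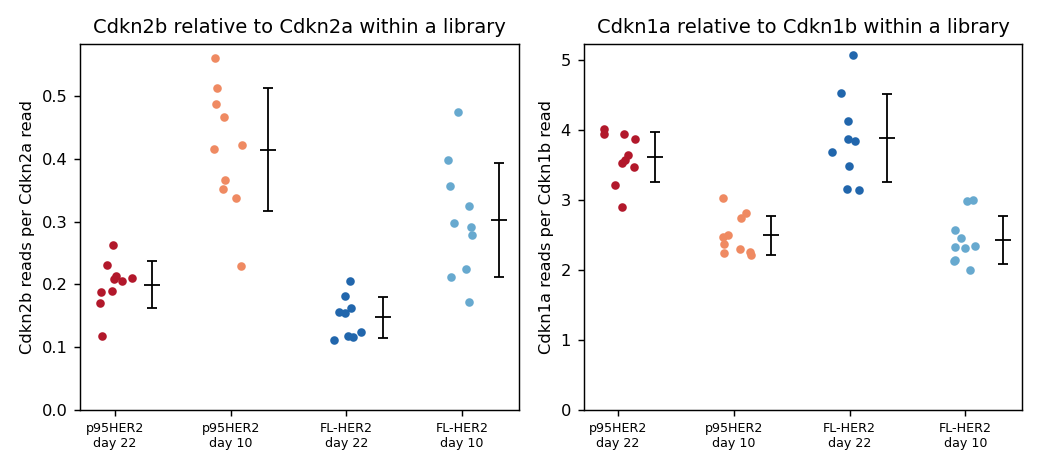
Ratio of reads within each library (points) with mean ± SD (bars) by group: Cdkn2b reads per Cdkn2a read on the left and Cdkn1a reads per Cdkn1b read on the right, linear axes from 0. The day 22 groups are low on the left (means 0.200 and 0.147) and high on the right (3.61 and 3.87).

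Cdkn2c and Cdkn2d encode p18Ink4c and p19Ink4d, INK4 proteins that proliferating cells also express. In p95HER2 tumors Cdkn2c had 2265, 2695 and 3264 normalized counts at day 22 and 2005, 2266 and 2390.5 at day 10. In FL-HER2 tumors Cdkn2c had 2545, 2699.6 and 2951 at day 22 and 2028, 2268 and 2755 at day 10. The day 22 groups stood higher, with 8 of 10 p95HER2 libraries above all of p95HER2 at day 10. The receptor differences were -0.02 ± 0.06 at day 10 (95% interval -0.13 to 0.10, limma adjusted p = 0.827) and -0.03 ± 0.06 at day 22 (-0.14 to 0.09, adjusted p = 0.852), and the first was 0.03 and 0.04 under median-of-ratios and TMM scaling. Cdkn2c rose with time by 0.27 ± 0.06 in p95HER2 (adjusted p = 0.000199) and by 0.28 ± 0.06 in FL-HER2 (adjusted p = 0.000107), calls that ended with the epithelium score as a covariate (0.14 in p95HER2 and 0.12 in FL-HER2). The call in FL-HER2 also ended with the fibroblast score (0.35, adjusted p = 0.162).

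Cdkn2d varied widely within some groups. In p95HER2 tumors Cdkn2d had 583, 673 and 726 normalized counts at day 22 and 384, 623 and 874 at day 10. In FL-HER2 tumors Cdkn2d had 393, 600.03 and 662 at day 22 and 544, 722 and 779 at day 10. All 4 groups overlapped, with the widest spread in p95HER2 at day 10 (137 SD around a mean of 622). Cdkn2d fell with time in FL-HER2 by 0.33 ± 0.11 (limma adjusted p = 0.00850) and had a change of 0.12 ± 0.10 in p95HER2 (adjusted p = 0.411). The fall in FL-HER2 ended under 6 alternatives: without the skin-high libraries (-0.25), with the digits term (-0.16), and with the macrophage (-0.21), epithelium (-0.22), fibroblast (-0.13) or length covariate (-0.17), at adjusted p from 0.0732 to 0.865. Its receptor effect was -0.22 ± 0.10 at day 10 (adjusted p = 0.0874, called without p95HER2 day 10 replicate 1 at -0.28 and without FL-HER2 day 10 replicate 9 at -0.26) and 0.23 ± 0.11 at day 22 (adjusted p = 0.235), and these 2 effects differed by 0.45 ± 0.15 (adjusted p = 0.0286). That difference ended under 8 alternatives and without FL-HER2 day 22 replicate 1 (0.40, adjusted p = 0.0522). With a length index as a covariate (the mean log2 value of the 1357 genes of shortest exon length minus that of the 1354 of longest, which averaged -1.61 in p95HER2 and -1.60 in FL-HER2 at day 22, and -1.70 in p95HER2 and -1.35 in FL-HER2 at day 10), it was 0.23 (adjusted p = 0.175).

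Cdkn1a encodes p21, the Cip/Kip inhibitor that p53 induces. In p95HER2 tumors Cdkn1a had 6339.95, 8203 and 9128 normalized counts at day 22 and 6429, 6884 and 8122 at day 10. In FL-HER2 tumors Cdkn1a had 6672, 8287 and 10707 at day 22 and 5195, 5825 and 7356 at day 10. FL-HER2 spanned both the lowest and the highest libraries, and in both receptors most day 22 libraries stood above all of day 10 (6 of 10 in p95HER2 and 7 of 9 in FL-HER2).

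Cdkn1a was higher in p95HER2 at day 10 by 0.21 ± 0.07 (1.16-fold, limma adjusted p = 0.0162), and at day 22 its difference was -0.07 ± 0.07 (95% interval -0.22 to 0.08, adjusted p = 0.664). These effects differed by -0.28 ± 0.10 (adjusted p = 0.0456), which lost its call without any 1 of 22 libraries (adjusted p up to 0.0752). It also ended with no filter (adjusted p = 0.0637), the digits term (-0.36, adjusted p = 0.210) and the macrophage (adjusted p = 0.0973), epithelium (adjusted p = 0.0577) and fibroblast scores (-0.22, adjusted p = 0.370). With time Cdkn1a rose by 0.21 ± 0.07 in p95HER2 (adjusted p = 0.0193) and by 0.50 ± 0.07 in FL-HER2 (1.41-fold, adjusted p = 6.07e-07). Without the skin-high libraries the rise in p95HER2 was 0.09 (adjusted p = 0.510), and it also ended with the epithelium (0.25, adjusted p = 0.389) and fibroblast scores (0.14, adjusted p = 0.404). The rise in FL-HER2 ended with the fibroblast score (0.36, adjusted p = 0.293). The day 10 difference ended with the digits term (0.28, adjusted p = 0.138), the macrophage score (0.21, adjusted p = 0.191) and the fibroblast score (0.14, adjusted p = 0.470). Of the 3553 exonic bases of Cdkn1a (chromosome 17, 29090976 to 29100727, plus strand), 273 overlap an antisense gene, and no source used here gives the strand setting of the counting.

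Cdkn1b encodes p27, a Cip/Kip inhibitor that quiescent cells accumulate and that SKP2 marks for degradation. In p95HER2 tumors Cdkn1b had 2003, 2253 and 2560.02 normalized counts at day 22 and 2669.8, 2815 and 3026 at day 10. In FL-HER2 tumors Cdkn1b had 1992, 2161 and 2516 at day 22 and 2344, 2465 and 2959 at day 10. Every p95HER2 day 22 library lay below every p95HER2 day 10 library, as 4.14% of tested genes did. Cdkn1b fell with time by 0.32 ± 0.04 in p95HER2 (limma adjusted p = 8.94e-08) and by 0.18 ± 0.04 in FL-HER2 (adjusted p = 0.000847). The fall in p95HER2 ended with the epithelium score (-0.21, adjusted p = 0.147). The fall in FL-HER2 ended with the epithelium score (-0.03, adjusted p = 0.908), the digits term (-0.18, adjusted p = 0.0815) and the fibroblast score (-0.29, adjusted p = 0.112). Cdkn1b was higher in p95HER2 at day 10 by 0.17 ± 0.04 (1.12-fold, adjusted p = 0.00179), and the difference at day 22 was 0.02 ± 0.04 (95% interval -0.07 to 0.11, adjusted p = 0.852). The day 10 call ended with the muscle score (0.11, adjusted p = 0.0885), the macrophage score (0.03, adjusted p = 0.796) and the fibroblast score (0.10, adjusted p = 0.330) as covariates, with the length index (0.11, adjusted p = 0.0540) and with the digits term (0.16, adjusted p = 0.152).

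The Cip/Kip pair therefore moved apart with time. Cdkn1a reads per Cdkn1b read averaged 3.61 ± 0.355 in p95HER2 at day 22 and 2.49 ± 0.279 at day 10 (SD), and 3.87 ± 0.629 in FL-HER2 at day 22 and 2.42 ± 0.342 at day 10. The third Cip/Kip gene, Cdkn1c (p57), an imprinted inhibitor of developing tissues, was no member but belongs to the family. It had 24.6 ± 10.8 normalized counts in p95HER2 at day 22, 81.7 ± 38.9 in p95HER2 at day 10, 40.7 ± 19.4 in FL-HER2 at day 22 and 235 ± 75.4 in FL-HER2 at day 10 (SD). Cdkn1c fell with time in both receptors (-1.66 ± 0.26 in p95HER2 and -2.55 ± 0.26 in FL-HER2, limma adjusted p = 2.06e-06 and 3.02e-10) and was lower in p95HER2 at day 10 (-1.57 ± 0.26, adjusted p = 7.56e-06). Fibroblast and muscle markers were also lower in p95HER2 at day 10 (8 of 12 and 20 of 20 called), beside 26.1% of all tested genes called lower. Their part in the difference of Cdkn1c was not tested.

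**Figure D3:**
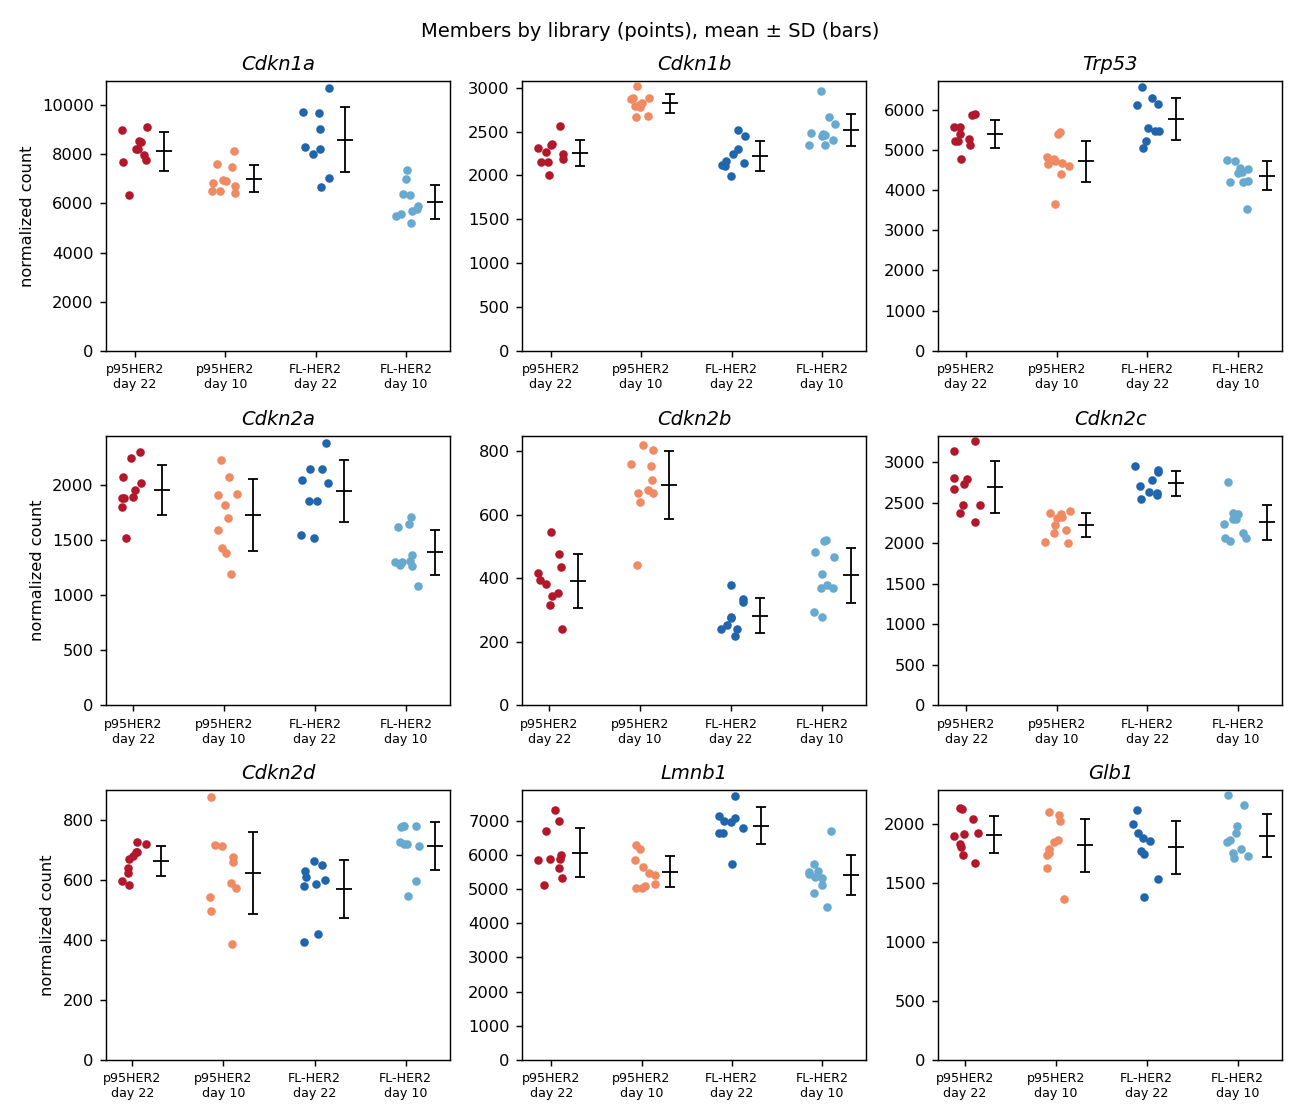
Normalized counts of the 9 members in each library (points) with mean ± SD (bars), grouped from left to right as p95HER2 day 22, p95HER2 day 10, FL-HER2 day 22 and FL-HER2 day 10, linear axes from 0. By its mean, p95HER2 at day 10 is the highest group for Cdkn2b (440.4 to 818) and Cdkn1b (2669.8 to 3026), and the Glb1 groups overlap.

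Trp53 encodes p53, the factor that links DNA damage and Arf to Cdkn1a. In p95HER2 tumors Trp53 had 4774, 5335 and 5905 normalized counts at day 22 and 3644, 4701 and 5452 at day 10. In FL-HER2 tumors Trp53 had 5046, 5539 and 6566 at day 22 and 3536, 4442 and 4762 at day 10. All 9 FL-HER2 day 22 libraries lay above all 10 of day 10, as 2.78% of tested genes did. Trp53 rose with time by 0.20 ± 0.06 in p95HER2 (limma adjusted p = 0.00592) and by 0.40 ± 0.06 in FL-HER2 (adjusted p = 4.77e-07). The rise in p95HER2 ended without the skin-high libraries (0.20, adjusted p = 0.0731) and with the epithelium (0.18, adjusted p = 0.481) and fibroblast scores (0.14, adjusted p = 0.287). The rise in FL-HER2 ended with the epithelium (0.37, adjusted p = 0.107) and fibroblast scores (0.29, adjusted p = 0.30). The receptor difference was 0.11 ± 0.06 at day 10 (adjusted p = 0.124) and -0.09 ± 0.06 at day 22 (adjusted p = 0.425). At day 10 it depended on the scaling and on 1 library: it was called with median-of-ratios size factors (0.15, adjusted p = 0.0211), with TMM (0.16, adjusted p = 0.0146), and without p95HER2 day 10 replicate 5 (0.15, adjusted p = 0.0207). With the length index as a covariate it was 0.24 (adjusted p = 0.000241).

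The RNA of Trp53 and of its target Cdkn1a showed no relation past the permutation test over the 39 libraries with group means removed (r = 0.21, rho = 0.21, permutation adjusted p = 0.271 and 0.311, r = 0.31 without the 2 outermost libraries). The 11 p53 regulators were chosen, like every list here, with earlier results known. Beside 41.3% of all tested genes called at day 10, 4 of them rose and none fell in p95HER2. They included Mdm4, an inhibitor of p53 (0.45 ± 0.11, limma adjusted p = 0.00114), and Trp53bp1, a DNA break adaptor (0.19 ± 0.05, adjusted p = 0.00165), and the list's median change was 0.08. With time 1 rose and 1 fell in p95HER2 and 6 rose and none fell in FL-HER2. These counts stand beside 35.2% and 51.4% of all tested genes called. The checkpoint kinase Chek2 was higher at day 22 in both (0.43 ± 0.08 in p95HER2 and 0.51 ± 0.08 in FL-HER2, adjusted p = 3.13e-05 and 1.99e-06). With the digits term none of the 11 rose and 1 fell at day 10, where 1375 rather than 5636 of all tested genes were called.

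Lmnb1 encodes lamin B1, whose loss is a known mark of senescent cells. In p95HER2 tumors Lmnb1 had 5119, 5888 and 7319 normalized counts at day 22 and 5039, 5441 and 6284 at day 10. In FL-HER2 tumors Lmnb1 had 5742, 6978 and 7746 at day 22 and 4482, 5408 and 6694 at day 10. FL-HER2 at day 22 was the high group, and the day 10 groups overlapped fully. The receptor difference was 0.03 ± 0.06 at day 10 (95% interval -0.10 to 0.16, limma adjusted p = 0.719) and -0.18 ± 0.06 at day 22 (-0.31 to -0.05, adjusted p = 0.0936). The day 22 difference was called, at -0.23, once the muscle score entered as a covariate (adjusted p = 0.0110), and at -0.21 without p95HER2 day 22 replicate 1 (adjusted p = 0.0493), without p95HER2 day 22 replicate 3 (adjusted p = 0.0466) or without FL-HER2 day 22 replicate 6 (adjusted p = 0.0332). Lmnb1 rose with time in FL-HER2 by 0.35 ± 0.06 (adjusted p = 2.14e-05), and its change in p95HER2 was 0.13 ± 0.06 (adjusted p = 0.0925, and 0.0416 without p95HER2 day 22 replicate 4). The rise in FL-HER2 ended with the epithelium score (0.10, adjusted p = 0.786) and the fibroblast score (0.31, adjusted p = 0.301). The change in p95HER2 was called with quantile normalization (0.19, adjusted p = 0.0340), the muscle score (0.14, adjusted p = 0.0399) and the length index (0.15, adjusted p = 0.0417).

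Lmnb1 followed the proliferation marker Mki67 within groups. With group means removed, r was 0.53 and rho 0.50 over the 39 libraries (permutation adjusted p = 0.00144 and 0.00600, 4 relations). It was 0.82 within p95HER2 at day 22 and 0.38 at day 10, and 0.35 within FL-HER2 at day 22 and 0.68 at day 10. Without the 2 libraries outermost in Mki67 r was 0.61, and without the skin-high libraries 0.44. Among the libraries with 3-digit tumor numbers r was 0.46.

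**Figure D4:**
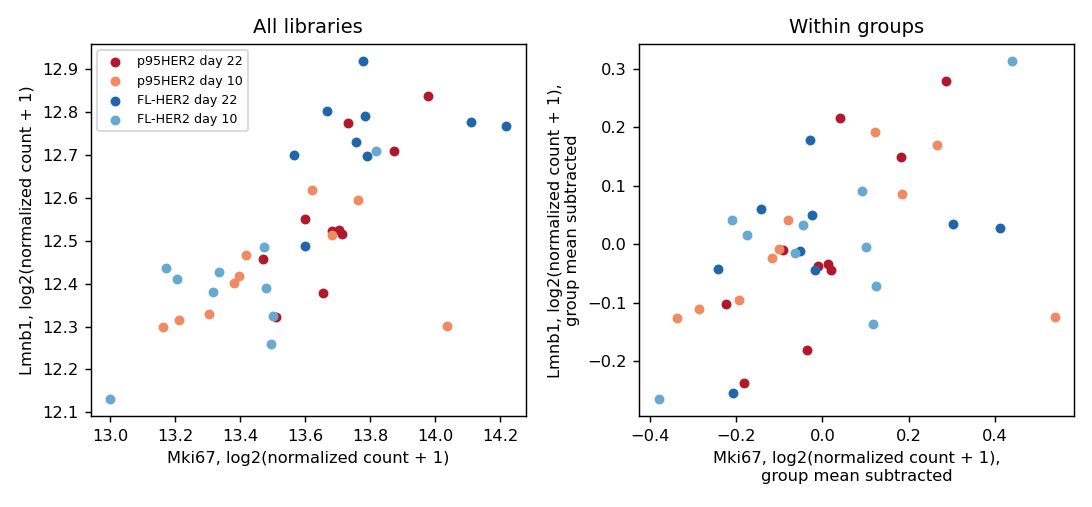
Lmnb1 against Mki67 by library, as log2(normalized count + 1), on the left as measured and on the right with each group's mean subtracted. Points rise together within groups on the right (r = 0.53, n = 39), and 1 p95HER2 day 10 library lies apart at the highest Mki67 value on that panel.

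More of the proliferation genes themselves were called with time than between the receptors. Of all tested genes 35.2% were called with time in p95HER2 (16.6% higher) and 51.4% in FL-HER2 (20.7% higher). Between the receptors 41.3% of all tested genes were called at day 10 and 4.52% at day 22. Of the 15 proliferation genes, 7 rose and none fell with time in p95HER2 (median 0.19). In FL-HER2 13 rose and none fell (median 0.28, 6 with the digits term). With that term 2953 rather than 7011 of all tested genes were called. The helicase subunits Mcm6 and Mcm3 were higher at day 22 in p95HER2 (0.46 ± 0.06 and 0.41 ± 0.05, limma adjusted p = 3.94e-08 and 3.00e-08) and in FL-HER2 (0.48 ± 0.06 and 0.39 ± 0.05, adjusted p = 1.57e-08 and 7.53e-08). Between the receptors 1 rose, Top2a (0.17 ± 0.07, adjusted p = 0.0355), and 1 fell, Pcna (-0.15 ± 0.06, adjusted p = 0.0290), at day 10, and none was called at day 22 (Mki67 -0.12 ± 0.10, adjusted p = 0.589).

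Of 11 nuclear lamina and chromatin genes none was called at day 10, and at day 22 Sun2, a nuclear envelope linker, was higher (0.22 ± 0.06, limma adjusted p = 0.0234) and the chromatin protein Hmgb1 lower in p95HER2 (-0.16 ± 0.05, adjusted p = 0.0359). With time 4 rose and 2 fell in p95HER2, and 2 rose and 2 fell in FL-HER2. Over all tested genes 41.3% were called at day 10, 4.52% at day 22, 35.2% with time in p95HER2 and 51.4% in FL-HER2. The lamin B receptor Lbr rose in both (0.25 ± 0.06 in p95HER2 and 0.45 ± 0.06 in FL-HER2, adjusted p = 0.000597 and 6.55e-08) and the lamin A gene Lmna fell in both (-0.27 ± 0.08 in p95HER2 and -0.33 ± 0.08 in FL-HER2, adjusted p = 0.00417 and 0.000556).

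Glb1 encodes the lysosomal beta-galactosidase behind the usual staining of senescent cells, an enzyme activity that RNA does not measure. In p95HER2 tumors Glb1 had 1668, 1904 and 2131 normalized counts at day 22 and 1365, 1814 and 2101 at day 10. In FL-HER2 tumors Glb1 had 1381, 1857 and 2115 at day 22 and 1713, 1853 and 2243 at day 10. The 4 groups overlapped, and Glb1 was the member called in none of the 5 comparisons. Its receptor difference was -0.07 ± 0.07 at day 10 (95% interval -0.21 to 0.07, limma adjusted p = 0.442) and 0.09 ± 0.07 at day 22 (-0.06 to 0.24, adjusted p = 0.559). Its change with time was 0.08 ± 0.07 in p95HER2 (adjusted p = 0.432) and -0.08 ± 0.07 in FL-HER2 (adjusted p = 0.344). Of its 3008 exonic bases (chromosome 9, 114401076 to 114474898, plus strand), 165 overlap Tmppe on the same strand.

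Over all tested genes 41.3% were called at day 10, 35.2% with time in p95HER2, 51.4% in FL-HER2 and 19.6% for the change of effect. Some lysosomal genes other than Glb1 did change. Of 22, 2 rose and 11 fell in p95HER2 at day 10 (median -0.14), among them the hexosaminidase Hexa (-0.82 ± 0.12, limma adjusted p = 1.45e-06) and the membrane protein Lamp1 (-0.24 ± 0.05, adjusted p = 8.97e-05). With the digits term 1 rose and none fell, where 1375 rather than 5636 of all tested genes were called. With time 5 rose and 4 fell in p95HER2, and 1 rose and 12 fell in FL-HER2, where the protease Ctsd fell by 1.24 ± 0.12 (adjusted p = 7.01e-11). The receptor effect moved up between the days for 13 of 22 and down for none (1 of 22 with the digits term), as for Psap, a sphingolipid activator precursor (0.54 ± 0.11, adjusted p = 0.000944). For this change 233 rather than 2682 of all tested genes were called with the digits term. Lysosomal genes are also expressed by macrophages, whose 12 markers had 10 members lower in p95HER2 at day 10 and took 0.0585% to 0.119% of reads there, against 0.0883% to 0.131% in FL-HER2. The part of macrophages in the changes of this list was not tested. Glb1 and the mean of the macrophage markers had r = 0.36 and rho = 0.35 with group means removed (permutation adjusted p = 0.0540 and 0.0760, r = 0.40 without the 2 outermost libraries).

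Genes that set or read the inhibitors were counted by list, and Cdk6 and the D cyclins, the partners that INK4 proteins hold in check, led the cell cycle list. Over all tested genes 41.3% were called at day 10, 4.52% at day 22, 35.2% with time in p95HER2 and 51.4% in FL-HER2. These shares belong beside the counts of this list and of the RB and E2F, Ink4/Arf, p21 and p27 and secretory lists below. Of 13 cyclins and CDKs, 1 rose and 2 fell in p95HER2 at day 10: Cdk6 was higher (0.51 ± 0.08, limma adjusted p = 4.97e-06) and Ccnd2 (-0.70 ± 0.18, adjusted p = 0.00187) and Ccne2 (-0.32 ± 0.11, adjusted p = 0.0142) lower. At day 22 Ccnd2 was the 1 called (-0.68 ± 0.18, adjusted p = 0.0241). With time 3 rose and 3 fell in p95HER2 and 4 rose and 3 fell in FL-HER2. Ccnd1, the cyclin D1 gene downstream of HER2 signaling, rose in both (0.65 ± 0.07 in p95HER2 and 0.87 ± 0.08 in FL-HER2, adjusted p = 5.96e-09 and 7.83e-12), while Cdk6 fell in both (-1.14 ± 0.08 in p95HER2 and -0.52 ± 0.08 in FL-HER2, adjusted p = 4.58e-14 and 2.42e-06). The change of Cdk6 with time differed between the receptors (-0.62 ± 0.12, adjusted p = 0.000341).

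Of 13 RB and E2F family genes, 1 rose and 2 fell in p95HER2 at day 10, and none was called at day 22. Rb1, the pocket protein that CDK4 and CDK6 phosphorylate, was the one that rose (0.28 ± 0.06, limma adjusted p = 0.000148), and it fell with time in p95HER2 (-0.32 ± 0.06, adjusted p = 1.25e-05). The activator E2f1 rose with time in p95HER2 (0.29 ± 0.06, adjusted p = 0.000129) and in FL-HER2 (0.41 ± 0.06, adjusted p = 3.61e-07). In all, 4 rose and 3 fell with time in p95HER2, and 4 rose and 4 fell in FL-HER2.

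Of 15 regulators of the Ink4/Arf locus, 7 rose and 1 fell in p95HER2 at day 10 (median 0.11, 2 and 0 with the digits term). With that term 1375 rather than 5636 of all tested genes were called. The 7 that rose without it included Hmga2, a chromatin factor that lowers Ink4/Arf expression in stem cells (6.21 ± 0.29, limma adjusted p = 1.18e-19), Ets1, an activator of p16Ink4a (0.34 ± 0.07, adjusted p = 0.000103), and Dmtf1, an activator of Arf (0.31 ± 0.07, adjusted p = 0.000328). At day 22, 2 rose, Hmga2 and Id1, an inhibitor of ETS factors (0.63 ± 0.19, adjusted p = 0.0465). With time 1 rose and 8 fell in p95HER2 (median -0.17), and 4 rose and 5 fell in FL-HER2. Id1 fell in both (-1.78 ± 0.19 in p95HER2 and -2.29 ± 0.19 in FL-HER2, adjusted p = 6.10e-10 and 1.61e-12), and the Polycomb methyltransferase Ezh2, which silences the locus, rose in FL-HER2 (0.32 ± 0.06, adjusted p = 9.06e-06).

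Of 13 regulators of p21 and p27, 2 rose and 3 fell in p95HER2 at day 10 and 1 rose at day 22, Smad3, which carries TGF-beta signals to Cdkn2b and Cdkn1a (0.23 ± 0.05, limma adjusted p = 0.00171). With time 1 rose and 4 fell in p95HER2 and 1 rose and 6 fell in FL-HER2. Foxo1, an activator of Cdkn1b, fell in both (-0.78 ± 0.07 in p95HER2 and -0.79 ± 0.07 in FL-HER2, adjusted p = 2.15e-11 and 2.05e-11), as did Klf4, an activator of Cdkn1a (-0.70 ± 0.11 in p95HER2 and -1.25 ± 0.11 in FL-HER2, adjusted p = 1.94e-06 and 9.12e-12). Skp2, the ligase subunit that degrades p27, rose in p95HER2 (0.34 ± 0.08, adjusted p = 0.000720).

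The secretory factors known from senescent cells were the pathway list with the most calls between the receptors at day 22. Of 33 listed, 28 were tested. In p95HER2 tumors 10 rose and none fell at day 22 (median 0.35), and 11 rose and 6 fell at day 10 (median 0.14). At day 22 these included Inhba, the activin A subunit (613 ± 129 normalized counts in p95HER2 and 217 ± 94.8 in FL-HER2 as mean ± SD, then a log2 change of 1.56 ± 0.16, limma adjusted p = 1.14e-08), and the EGF receptor ligand Areg (285 ± 58.1 in p95HER2 and 71.05 ± 65.2 in FL-HER2, 2.37 ± 0.31, adjusted p = 1.42e-06). The protease Mmp10 was higher at both days (3.24 ± 0.44 at day 22 and 5.11 ± 0.43 at day 10, adjusted p = 3.06e-06 and 9.84e-12), and Il1a, a cytokine that starts the secretory program, was higher at day 10 (77.03 ± 28.5 normalized counts in p95HER2 and 7.06 ± 5.41 in FL-HER2, 3.43 ± 0.32, adjusted p = 1.07e-10). Without the skin-high libraries 6 rose at day 22 and 8 rose and 6 fell at day 10. At day 22, 228 rather than 617 of all tested genes were called without those libraries. The receptor effect changed between the days for 7 factors, higher at day 22 for 5, such as Igfbp6 (2.07 ± 0.44, adjusted p = 0.00121), and lower for 2, such as Il1a (-2.13 ± 0.46, adjusted p = 0.00121). Over all tested genes 19.6% were called for this change (13.5% higher, 6.2% lower).

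With time the same list was lower in both receptors: 2 rose and 13 fell in p95HER2 (median -0.77), and 3 rose and 17 fell in FL-HER2 (median -0.86). Tgfb1, a ligand known to induce Cdkn2b, fell by 0.80 ± 0.08 in p95HER2 and by 0.89 ± 0.08 in FL-HER2 (limma adjusted p = 5.88e-11 and 5.28e-12), Inhba by 1.79 ± 0.16 in p95HER2 and 1.73 ± 0.16 in FL-HER2 (adjusted p = 1.51e-11 and 4.03e-11), and Igfbp4 by 1.06 ± 0.12 in p95HER2 and 1.27 ± 0.12 in FL-HER2 (adjusted p = 2.85e-09 and 5.66e-11). Fibroblasts also secrete many of these factors, and their markers fell with time in the same comparisons (11 of 12 in p95HER2 and 12 of 12 in FL-HER2). Over all tested genes 18.6% were called lower with time in p95HER2 and 30.6% in FL-HER2. The part of fibroblasts in these changes was not tested for this list.

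**Figure D5:**
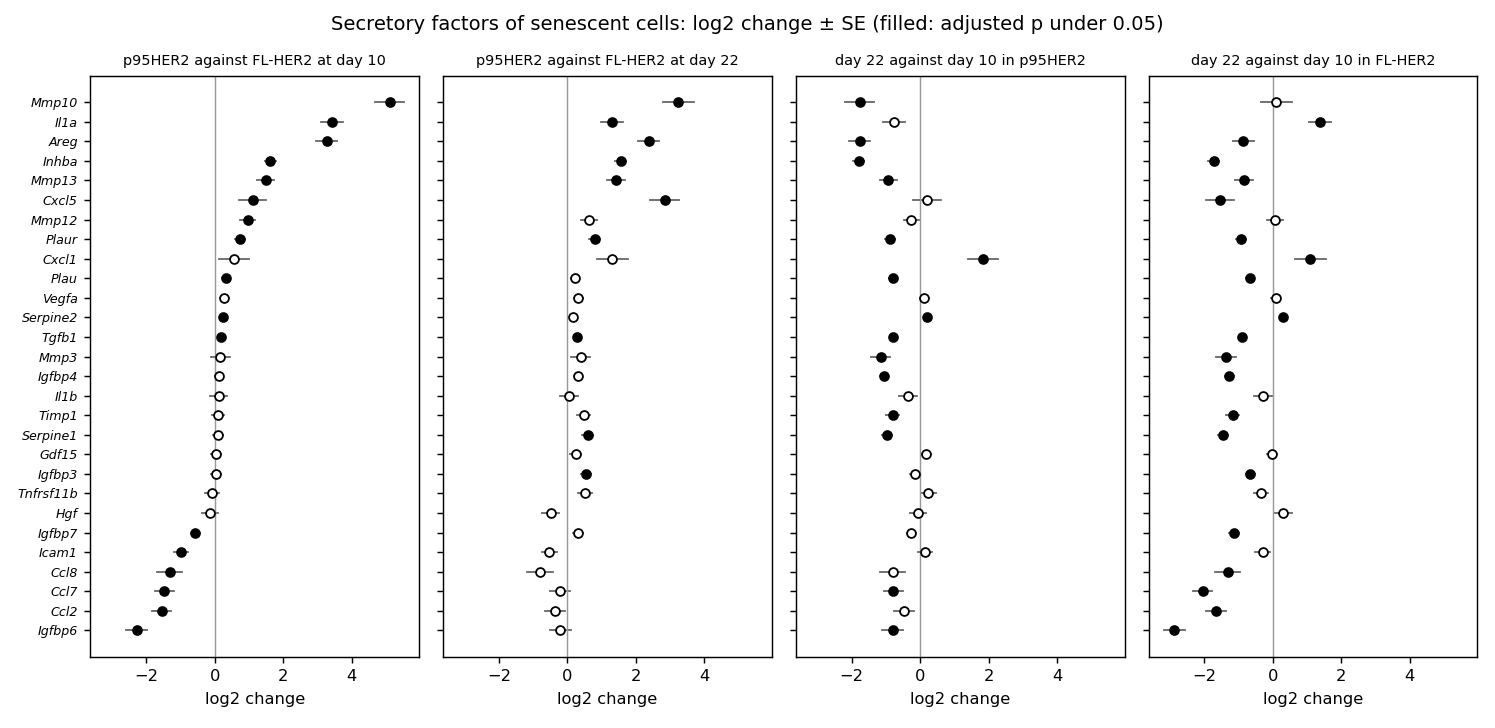
Log2 changes ± SE of the 28 tested secretory factors (filled where adjusted p is under 0.05) in 4 comparisons, ordered by the change between the receptors at day 10. Mmp10 (5.11 and 3.24) and Areg (3.27 and 2.37) lie right of 0 at both days, and most points lie left of 0 in both time courses.

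The genes whose levels were most alike each member over the 39 libraries with group means removed were found among all tested genes. For Lmnb1 they were the mitotic genes Kif20a (r = 0.86) and Bub1b (0.83), for Cdkn2c the mitotic genes Racgap1 (0.72) and Kif22 (0.71), and for Cdkn2b Col18a1 (0.78), a basement membrane collagen, and Cryz (0.76). Trp53 was most like Rpp21 (0.87) and Bax (0.86), a p53 target, Cdkn2a most like Plekhj1 (0.84) and Cuta (0.84), Cdkn2d most like Srsf9 (0.87) and Vps25 (0.87), and Glb1 most like Manbal (0.82) and Snapin (0.80). Cdkn1a was most like Ppme1 (0.66) and Herpud1 (0.66), and Cdkn1b most like Prrg1 (0.66) and Stt3b (0.65). All 8 genes named for Trp53, Cdkn2a, Cdkn2d and Glb1 have exons shorter in sum than the median gene (1107 to 3740 against 4431.5 bases). The same holds for those named for Cdkn1a (3100 and 2333) and Lmnb1 (4338 and 4275) and for Stt3b (4221). Those named for Cdkn2b and Cdkn2c, and Prrg1, are longer. The part of the length index in these likenesses was not tested.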

How the data were processed

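Poly(A) RNA was extracted with an RNeasy kit and made into directional libraries, per the labels' protocols. The submitters' processing notes name STAR 2.4.2a, DESeq2 and the mm10 build. No source used here gives the counter, annotation or strand setting. The authors' deposited values are log2(read count / size factor + 1), although the table is named as CPM. Whole reads were recovered from them (100% of values whole, tolerance 0.001 reads) for depth, CPM filters and rescaling. The planned unit was CPM, so the deposited log2 scale was used instead, and a fold change on it understates low genes.

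A gene was tested if 9 or more libraries had 1 CPM or more, which left 13650. limma 3.58.1 (lmFit, contrasts.fit, eBayes with trend, R 4.3.3) was fitted to the deposited log2 values of all 39 libraries with 1 coefficient per group, two-sided, with Benjamini-Hochberg adjustment over all tested genes in each comparison. Scores are mean log2 values of marker lists. Relations used 100000 permutations within groups. No library pair was identical. Alternatives were other pseudocounts, filters and scalings, covariates, library subsets and leaving out each library, and the macrophage, epithelium, fibroblast and length covariates were chosen after seeing the data. The fit was tested on simulated data.

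The 9 members and all gene lists were chosen with earlier results of these data known. Every member is named, then up to 3 called genes per list and comparison with the smallest adjusted p, or the 2 of highest level where none was called, and the 2 genes most alike each member (predicted genes left out). Not every gene so named is printed.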

Additional observations from a re-analysis of the deposited data

Results flagged for a closer look

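The change of the p95HER2 effect between the days passed the test for 2 members. For Cdkn1a it was -0.28 on the log2 scale (limma adjusted p = 0.0456), and for Cdkn2d it was 0.45 (adjusted p = 0.0286).

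In 5 of 36 groups of values (9 members in 4 groups) 1 library stood apart from the rest by Dixon's criterion, which chance alone meets in about 1 in 20 groups. Cdkn1a in p95HER2 day 22 replicate 2 was lowest, at 6339.95 normalized counts with the next library at 7678, a gap of 0.525 of the group's range. Cdkn2b in p95HER2 day 10 replicate 6 was lowest, at 440.4 with the next at 639, a gap of 0.6 of the range. Cdkn2c in FL-HER2 day 10 replicate 10 was highest, at 2755 with the next at 2368, a gap of 0.494. Trp53 was lowest in p95HER2 day 10 replicate 5, at 3644 with the next at 4414, a gap of 0.476, and in FL-HER2 day 10 replicate 3, at 3536 with the next at 4202, a gap of 0.58.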

How the results depend on the processing

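Across the alternatives 2342 of 2466 recomputed log2 changes of the members kept their side of the threshold. A change of sign where neither fit was called is included in that count. Glb1 with time in FL-HER2, for example, was -0.08 in the main fit and 0.01 to 0.07 with the 4 covariates chosen after seeing the data. The causes of the changes were not tested. Quantile normalization moved the median of all genes by 0.11 at day 10 and with time in FL-HER2. Of 9 members, 4 were called at day 10, and 1 with the digits of the tumor number as a term, 2 with the macrophage score and 1 with the fibroblast score. At day 22, 1 was called, and 0 with no filter, with only the groups compared, without the skin-high libraries, with the macrophage score or with the epithelium score, and 2 with the muscle score. With time in p95HER2, 5 were called, and 3 without the skin-high libraries, 0 with the epithelium score and 2 with the fibroblast score. With time in FL-HER2, 8 were called, and 4 with the digits term, 2 with the epithelium score and 0 with the fibroblast score, where Cdkn2b turned to 0.21. For the change of effect, 2 were called, and 5 with median-of-ratios or TMM (Cdkn1b, Lmnb1 and Trp53 added). With no filter 1 was called (Cdkn2d), as with quantile normalization, the muscle score or without the skin-high libraries (Cdkn1a in each). With the macrophage score (Trp53) or the epithelium score (Cdkn1b) 1 was called as well, while Cdkn1a and Cdkn2d both lost their calls. The count was 0 with the digits term or the fibroblast score.

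Leaving out each library gave 4 to 5 members at day 10, 0 to 2 at day 22, 5 to 6 with time in p95HER2, 8 with time in FL-HER2 and 1 to 4 for the change of effect, where Cdkn1a lost its call without 22 libraries. The counts of all genes ranged over 5003 to 5965, 339 to 892, 4443 to 4898, 6586 to 7219 and 2233 to 3233. All genes called at day 10 (5636) came to 3235 with the muscle score, 1375 with the digits term, 1747 with the macrophage score and 1534 with the fibroblast score. At day 22 the 617 came to 228 without the skin-high libraries, 411 with the macrophage score, 90 with the epithelium score and 1057 with the length index. With time in p95HER2 the 4799 came to 708 with the epithelium score and 2582 with the fibroblast score, and in FL-HER2 the 7011 came to 2953 with the digits term, 989 with the epithelium score and 394 with the fibroblast score. For the change of effect the 2682 came to 1659 without the skin-high libraries, 233 with the digits term, 1751 with the macrophage score and 481 with the fibroblast score.

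The relation of Cdkn2b with Cdkn2a was -0.0051 without the 2 outermost libraries. That of Glb1 with the macrophage mean kept r = 0.36 without the skin-high libraries (permutation p = 0.115) and without the libraries of 5-digit numbers (permutation p = 0.0516). The planned fits with count models are not reported here. No paired analysis was possible because the labels give no replicate numbers shared between groups. The digits were read from the column names, and 1 title disagrees. The term rests on the 2 FL-HER2 day 10 libraries with 3-digit numbers.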
